A study of Mus musculus with 6 samples.

Results

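The strong shared distal regions were 1228 stretches of the genome that carried a highly significant ATAC-seq peak in both deposited peak lists. The lists came from embryoid bodies grown from mouse epiblast stem cells. These regions had all their peak summits over 5 kb from the ends of protein-coding genes. They were chosen on measured values: the peaks of both lists were merged on the 19 autosomes wherever they overlapped by 1 bp or more, and a merged region was kept when each list gave it a peak of −log10 q of at least 50, where q is the false discovery rate the authors' peak caller gave the peak. The 1228 regions were 0.515% of 238308 merged autosomal regions, out of 239872 merged regions on all sequences. Both lists shared 96172 autosomal regions, of which 7.91% passed the threshold in both. Of those 7604, the other 6376 had a summit within 5 kb of a gene end. Among the 64846 shared regions beyond 5 kb the threshold kept 1.89% and left 63618, which are called the other shared distal regions below. A further 83899 distal regions stood in the FM list only and 31224 in the KO list only.

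The study measured 2-day embryoid bodies grown from mouse epiblast stem cells in serum, with 3 libraries from Mixl1-inducible cells that received doxycycline at 1 µg/mL during the last 24 h and 3 libraries from Mixl1 knockout cells. All cells were kept before differentiation on irradiated mouse embryonic fibroblasts with bFGF and Activin A, and each library was made from 50000 cells with 11 PCR cycles. Mixl1 encodes a homeobox protein made in the primitive streak, where mesoderm and endoderm form. Doxycycline is recorded for the inducible cells only, so Mixl1 level, drug and cell line cannot be told apart. The labels call the libraries triplicates without saying whether the cultures were separate. With 1 peak list for each group there is no spread between replicates, and the groups cannot be tested against each other. The list named KO is the knockout's; the one named FM was taken as the induced group's because no other group remains. They are written FM and KO beside values. Read totals per library were not analysed here. With peaks at or above −log10 q of 50 counted on autosomes, the FM list had 8106 of 204650 (3.96%) and the KO list 11173 of 138130 (8.09%). The peak lists hold no expression values, so neither the level of Mixl1 nor the cell types in the bodies could be checked. No strong shared distal region had Mixl1 as its nearest gene. Only 995 of 20665 autosomal protein-coding genes (4.81%) were the nearest gene of such a region within 100 kb.

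In ATAC-seq the transposase Tn5 inserts adapters where nucleosomes leave DNA exposed, and open sites fall mainly at promoters, enhancers and insulators. Promoters are open in most cell types, often over CpG islands, whereas enhancers lie at any distance from their gene and change more between cell types. One gene can have several promoters, and an alternative promoter inside the gene lies far from the gene's outer ends. A region called distal from gene ends alone can therefore still be a promoter.

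The label distal held for gene ends only. Of the 1175 regions on chromosomes covered by the start table, 359 overlapped a window from 250 bases before to 50 bases after a RefSeq transcription start of a protein-coding or lncRNA gene (30.6%, exact 95% interval 27.9 to 33.3%). The same overlap was 2.77% in the other shared distal regions (2.64 to 2.90%, 1699 of 61346), 0.827% in distal regions of the FM list only and 0.755% in those of the KO list only. The intervals cover the counting of regions only. Among strong shared regions near gene ends it was 81.4%.

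The windows below are the 250 bases before 6 such starts, from the RefSeq promoter table on GRCm38.p6, the assembly of mm10, read 5′ to 3′ on the gene's strand. They show 4 starts inside protein-coding genes, where 284 of the 359 overlapping regions lay, at genes taken from the lists and counts described further on, and the lncRNA starts of Chaserr, CpG-rich, and Gm41331, CpG-poor. Capitals mark matches, on either strand and with overlapping matches joined, to the motifs searched: CCGGAAG (ETS factors), GCGCNTGC (NRF1), AANATGGC (YY1), GGGCGGG (SP and KLF factors), CCAAT (NF-Y), TATAAA (the TATA box) and TGACGTCA (CRE).
Stag1: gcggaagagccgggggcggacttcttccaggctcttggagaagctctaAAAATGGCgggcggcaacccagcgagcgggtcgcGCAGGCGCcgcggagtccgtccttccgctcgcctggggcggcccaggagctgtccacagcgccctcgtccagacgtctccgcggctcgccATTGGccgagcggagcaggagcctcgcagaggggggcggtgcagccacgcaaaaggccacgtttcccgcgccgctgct
Chaserr: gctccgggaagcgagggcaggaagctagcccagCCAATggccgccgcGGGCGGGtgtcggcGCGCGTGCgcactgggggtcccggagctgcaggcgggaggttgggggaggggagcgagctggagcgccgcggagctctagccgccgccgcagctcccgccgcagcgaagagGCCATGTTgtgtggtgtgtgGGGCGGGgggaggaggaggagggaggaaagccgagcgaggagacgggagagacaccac
Dnmt3a: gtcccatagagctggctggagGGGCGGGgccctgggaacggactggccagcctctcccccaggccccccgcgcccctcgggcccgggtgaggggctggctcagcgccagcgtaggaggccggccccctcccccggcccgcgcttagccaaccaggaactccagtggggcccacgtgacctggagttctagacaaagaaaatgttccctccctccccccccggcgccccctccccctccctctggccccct
Runx1: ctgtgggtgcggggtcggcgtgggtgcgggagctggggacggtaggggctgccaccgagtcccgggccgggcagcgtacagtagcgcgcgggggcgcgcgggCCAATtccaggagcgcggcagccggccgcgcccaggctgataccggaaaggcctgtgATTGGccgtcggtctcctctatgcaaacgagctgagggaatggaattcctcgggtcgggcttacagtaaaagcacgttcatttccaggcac
Sertad2: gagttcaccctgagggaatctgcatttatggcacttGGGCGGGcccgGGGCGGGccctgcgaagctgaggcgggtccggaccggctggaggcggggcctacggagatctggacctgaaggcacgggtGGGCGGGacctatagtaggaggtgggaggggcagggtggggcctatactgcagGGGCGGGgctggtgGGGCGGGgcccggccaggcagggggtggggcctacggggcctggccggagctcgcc
Gm41331: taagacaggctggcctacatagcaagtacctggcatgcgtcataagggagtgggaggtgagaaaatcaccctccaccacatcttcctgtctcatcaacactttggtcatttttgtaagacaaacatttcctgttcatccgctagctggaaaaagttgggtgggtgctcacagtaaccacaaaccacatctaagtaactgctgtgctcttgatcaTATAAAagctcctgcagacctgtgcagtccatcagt
The Stag1 window lies at chr9:100643198-100643447 on the plus strand, 45.7 kb inside the gene, which encodes a subunit of cohesin, the ring complex that holds chromatin loops. It holds an NRF1, a YY1 and a CCAAT match, and its observed over expected CpG ratio is 0.980. The Chaserr window, chr7:73558396-73558645 on the minus strand, precedes a noncoding RNA that is known in mouse to restrain its neighbour Chd2. Its CpG ratio is 0.879, with NRF1, YY1, SP/KLF and CCAAT matches. The Dnmt3a window, chr12:3891494-3891743 on the plus strand, lies 90.2 kb inside the gene of a de novo DNA methyltransferase and has a CpG ratio of 0.459. The Runx1 window, chr16:92697330-92697579 on the minus strand, lies 129 kb inside the gene of a transcription factor of blood formation and has a CpG ratio of 0.978 with CCAAT matches in both orientations. The Sertad2 window, chr11:20631727-20631976 on the plus strand, lies 88.8 kb inside the gene and holds several GGGCGGG runs at a CpG ratio of 0.576. The Gm41331 window, chr15:60141661-60141910 on the plus strand, has a CpG ratio of 0.150 and a TATAAA match near its 3′ end.

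**Figure D1:**
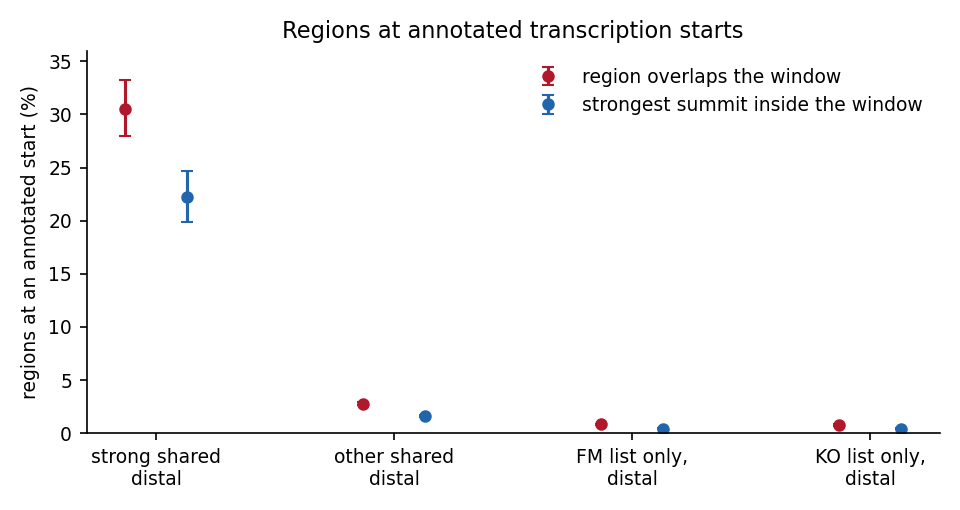
Share of regions (%, vertical axis) that overlapped an annotated start window (red) or held the strongest summit of a list inside it (blue), for 4 classes of distal region; bars are exact 95% intervals over regions. The strong shared distal regions stand at 30.6% and 22.2%, against 2.77% and 1.60% in the other shared distal regions.

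The starts were mostly of protein-coding genes. A coding start lay in 267 regions (22.7%), against 0.999% of the other shared distal regions. A lncRNA start lay in 120 (10.2%), against 1.83%. Both kinds were present in 28 regions, coding alone in 239 and lncRNA alone in 92. In 261 regions (22.2%) the strongest summit of a list fell inside the window itself, against 1.60% of the other shared distal regions. The regions held 462 windows of 391 genes, 317 coding and 145 lncRNA. The 317 coding starts lay a median of 16.7 kb, and between 4.89 and 1090 kb, from the outer start of their own gene.

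Read from the starts instead of the regions, 10671 annotated starts lay over 5 kb from any protein-coding gene end. Of these, 460 (4.31%) fell in a strong shared distal region, 1955 (18.3%) in another shared distal region, 938 (8.79%) in a distal region of 1 list, and 7269 (68.1%) in no peak. The remaining 49 (0.459%) fell in regions that also had a summit near a gene end. Thus most annotated starts of this kind had no peak in either list, and the strong shared regions held a small share of those that had one.

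The CpG content of these windows was highest in strong shared distal regions, and the classes overlapped. Windows in regions of 1 list and windows with no peak differed little. The median CpG ratio was 0.763 in windows inside strong shared distal regions (quartiles 0.60 and 0.893), 0.318 in other shared distal regions, 0.232 in regions of 1 list and 0.202 in windows with no peak. A ratio over 0.6, a usual mark of a CpG island, was reached by 75%, 20.9%, 2.88% and 3.43% of the windows in the same order. All 31396 autosomal starts had a median of 0.389 and reached that ratio in 36.4%. Coding windows inside strong shared distal regions had a median ratio of 0.776 and lncRNA windows 0.712. The median GC content ran from 63.8% in strong shared distal windows to 45.7% in windows with no peak, with 54.7% and 51.7% in between.

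**Figure D2:**
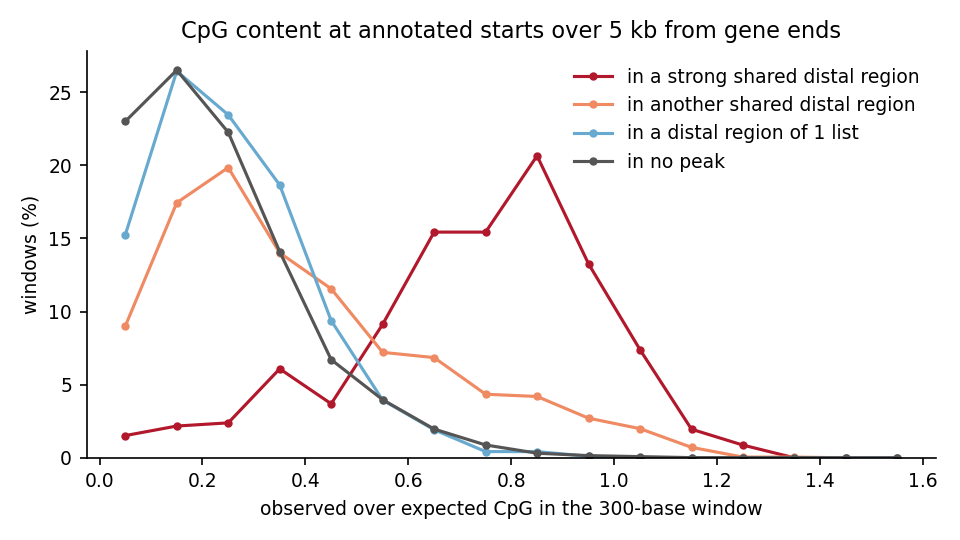
Distribution of the observed over expected CpG ratio (horizontal axis, bins of 0.1) as a share of windows (%, vertical axis) for annotated starts over 5 kb from gene ends, by the region they fell in. Windows in strong shared distal regions peak at a high ratio (median 0.763) and the 3 other classes at a low one (medians 0.318, 0.232 and 0.202).

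Motif shares differed between the same classes of window. GGGCGGG was present in 53.5% of windows in strong shared distal regions, 22.4% in other shared distal regions, 2.57% in windows with no peak and 25.8% of all autosomal start windows. GCGCNTGC was present in 23.0%, 5.01%, 1.54% and 9.71% in the same order, and CCGGAAG in 12.2%, 5.17%, 2.01% and 9.0%. The motif TGACGTCA stood at 3.04%, 1.53%, 0.482% and 1.83%. CCAAT differed little, at 36.1%, 30.4%, 38.1% and 37.3%, and AANATGGC stood at 3.91%, 4.14%, 5.81% and 6.03%. TATAAA stood at 5.87% in strong shared distal windows, 7.01% in other shared distal windows, 19.8% in windows with no peak and 13.6% of all starts. The classes mixed coding and lncRNA windows differently, with 316 coding among 460 in strong shared distal regions, 692 among 1955 in other shared distal regions and 837 among 7269 with no peak. Within coding windows TATAAA was present in 3.48%, 6.50% and 19.6% in that order, and within lncRNA windows in 11.1%, 7.28% and 19.8%. The order of the first 2 classes thus differed between the kinds, but on few windows. In strong shared distal regions they were 11 of 316 coding and 16 of 144 lncRNA windows, and no interval was computed. GGGCGGG was present in 57.6%, 37.0% and 4.90% of coding windows and in 44.4%, 14.3% and 2.27% of lncRNA windows. GC content differed between the same windows, and its part in these shares was not tested. A match describes letters, not binding.

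Protein-coding genes contained 650 of the 1228 regions (52.9%, exact 95% interval 50.1 to 55.8%), close to the other shared distal regions at 54.5%. The share was 56.8% in distal regions of the FM list only and 51.0% in those of the KO list only. Inside genes 284 of 620 regions with start data lay at an annotated start (45.8%), against 75 of 555 outside genes (13.5%). Outside genes, the nearest gene lay a median of 30.6 kb away, against 27.3 kb for the other shared distal regions. By distance, 112 regions lay up to 10 kb from a gene, 268 at 10 to 50 kb, 68 at 50 to 100 kb, 117 at 100 to 500 kb and 13 farther away. The regions were spread over all 19 autosomes and made up between 1.34% (chromosome 15) and 2.86% (chromosome 14) of a chromosome's shared distal regions. Chromosome 12, which had the most shared distal regions (6368), contributed 89 (1.40%).

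Noncoding genes lay within 1 kb of the FM list's strongest summit in 309 regions (25.2%, 22.8 to 27.7%), against 17.1% of the other shared distal regions. For lncRNA genes the shares were 20.4% and 14.2%. The nearest noncoding gene was a lncRNA in 248 of the 309, a transcribed pseudogene in 19, a pseudogene in 14, a tRNA in 9 and an rRNA in 3. Genes for tRNA and 5S rRNA are short, are transcribed by RNA polymerase III and carry their promoter within the gene. A tRNA or rRNA gene was the nearest noncoding gene within 1 kb in 12 of 1228 regions (0.977%, 0.506 to 1.70%), against 81 of 63618 other shared distal regions (0.127%, 0.101 to 0.158%). The 9 regions at tRNA genes had folds of 3.54 to 7.15 in FM and 3.72 to 7.65 in KO, with the summit 103 to 864 bp from the gene. Among them, chr1:171074307-171074807 lay at a glycine tRNA gene, n-TGgcc13, with folds of 5.04 in FM and 7.65 in KO, and chr3:19627768-19629406 at a tyrosine tRNA gene, n-TYgta1, with 5.60 and 5.76. The 3 regions at rRNA genes all lay near 5S genes on chromosome 8, with folds of 4.94 to 7.52 in FM and 5.87 to 6.47 in KO. Their summits lay 339 to 650 bp from the gene.

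MicroRNA hairpins lay within 3 kb of a few regions, and 3 such regions adjoined conserved microRNAs. Their main mature strands are printed from RefSeq on GRCm38.p6 with the seed, bases 2 to 8, in capitals, ordered so that shared seeds stand together.
mmu-miR-17-5p: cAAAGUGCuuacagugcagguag
mmu-miR-20a-5p: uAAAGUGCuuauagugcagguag
mmu-miR-18a-5p: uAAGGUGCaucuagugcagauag
mmu-miR-19a-3p: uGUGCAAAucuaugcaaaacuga
mmu-miR-19b-3p: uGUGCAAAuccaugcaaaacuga
mmu-miR-92a-3p: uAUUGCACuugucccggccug
mmu-miR-148a-3p: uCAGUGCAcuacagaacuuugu
mmu-miR-130a-3p: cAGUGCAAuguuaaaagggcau
The first 6 come from a single cluster that promotes proliferation and cell survival in many tissues. miR-17-5p and miR-20a-5p share the seed AAAGUGC, and miR-19a-3p and miR-19b-3p share GUGCAAA. The region next to them, chr14:115040213-115042629, was 2417 bp wide and ended 1.04 kb before the Mir17 hairpin and 1.80 kb before the Mir92-1 hairpin, on the side from which the cluster is transcribed. Its fold enrichment was 3.92 in FM and 4.63 in KO, at −log10 q of 54.1 and 95.9. The nearest protein-coding gene was Gpc5, 51.5 kb away. The region beside Mir148a, chr6:51270072-51271955, lay 0.162 kb from the hairpin with folds of 5.04 in FM and 5.54 in KO. The region beside Mir130a, chr2:84743492-84744529, lay 2.31 kb from it with folds of 4.04 and 4.59. These 3 lay on the upstream side of their hairpins, and none overlapped a start in the promoter table. The regions near Mir6540 and Mir7000 also lay upstream of the hairpin. Those near Mir3072 and Mir6965 lay downstream, 0.907 and 0.244 kb away. The region near Mir3073a and Mir3073b, hairpins on opposite strands, lay downstream of the first and upstream of the second. The share of other shared distal regions near a hairpin was not analysed here.

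Fold enrichment here is the authors' value, the pileup at a summit over the local background, and it serves only to describe peaks within a list. The strongest peak of a region had a median fold of 5.0 in FM (1.63 to 37.1) and 5.77 in KO (1.66 to 41.9). Its median −log10 q was 84.0 in FM (50.01 to 17912) and 126 in KO (50.09 to 55389). Ranked by p within FM, the regions ran from rank 1 to 8106 with a median of 3980, the top 1.94%. In the KO list they ran from rank 1 to 11159 with a median of 4565, the top 3.30%. Ranked by fold, the median was the top 1.77% of the FM list and the top 3.14% of the KO list, but the lowest region stood at 87.5% and 86.9%. They took 85 of the 100 peaks of lowest p in FM and 89 in KO, and 261 and 234 of the first 1000. The distal strong regions thus made up most of the very top of both lists and a minority further down. Across the 1228 regions the Spearman rho between lists was 0.876 for fold and 0.779 for −log10 q; the rule used both lists and the points share libraries, so this is a description.

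The regions were wide, and width comes from the same calls as the threshold. The median merged width was 1068.5 bp (quartiles 689 and 1405, range 214 to 4221), against 522 bp for other shared distal regions and 1312 bp for strong shared regions near gene ends. The median number of summits was 2 in each list, against 1 in other shared distal regions. The strongest summits of the lists lay a median of 17 bp apart, and within 20 bp in 54.3% of regions. That compares with 53 bp and 24.4% in other shared distal regions and 38 bp and 31.0% in strong shared regions near gene ends. Fold and width ran against each other, with a Spearman rho of −0.313 in FM and −0.300 in KO over the 1228 regions. Both come from the same peak calls, and no control library is among the samples. How far a wide peak raised its own background and so lowered its fold was not tested.

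**Figure D3:**
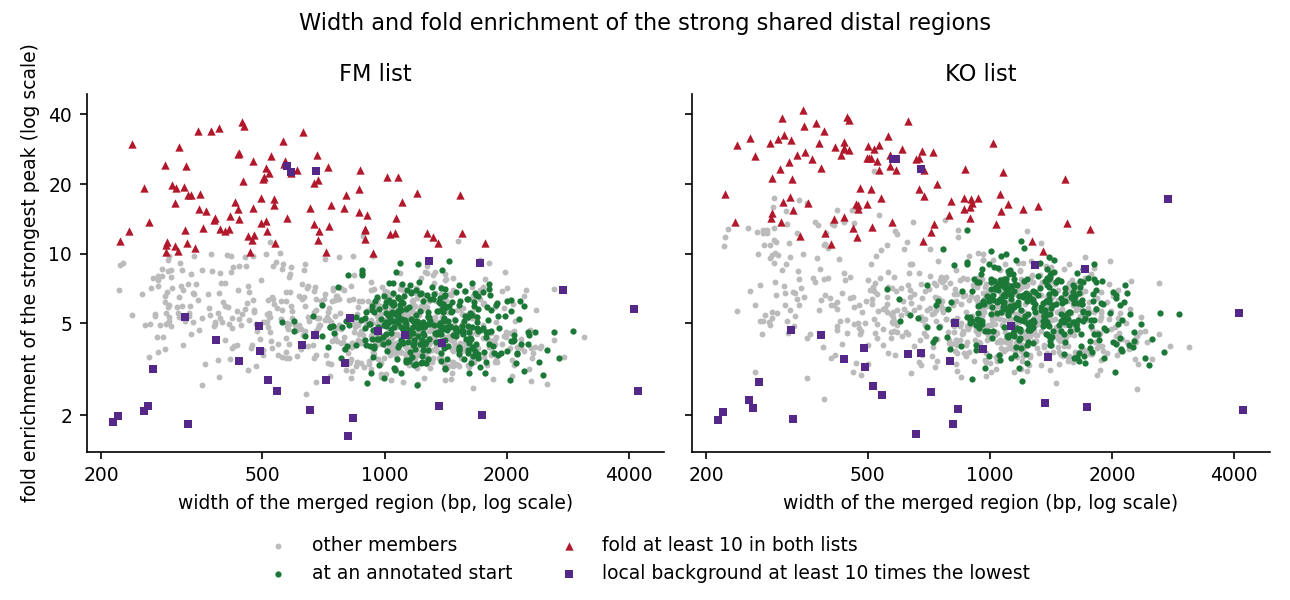
Width of each merged region (bp, log axis) against the fold enrichment of its strongest peak (log axis) in FM (left) and KO (right), 1 point per region; 3 regions with both a high fold and a high background are drawn as squares. Regions of fold at least 10 in both lists are narrow (median 505 bp), and regions at annotated starts are wide (median 1258 bp) and mostly under fold 10.

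The high-fold regions formed a class apart from the starts. In 105 regions the fold was at least 10 in both lists, with medians of 15.8 in FM and 21.2 in KO. Their median width was 505 bp, and 77.1% had a single summit in both lists. Genes contained 30.5% of them, and 1 of the 98 with start data lay at an annotated start. The other 1123 regions had a median width of 1115 bp, lay inside genes in 55.0% and at starts in 33.2% (358 of 1077). Regions at a start were 1258 bp wide at the median, lay inside genes in 79.1% and had a single summit in both lists in 15.3%. Those not at a start stood at 939.5 bp, 41.2% and 43.1%. The single high-fold region at a start was chr15:60141648-60142121 at Gm41331, with folds of 15.7 in FM and 16.3 in KO, whose TATAAA-bearing window is printed above.

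A second small class stood out by its local background, which can be recovered from the fold and the p-value of each summit. The recovered background had a median of 48.5 fragments in FM (28.6 to 4985) and 53.2 in KO (28.8 to 11077). Fragments here means units of the caller's pileup, and what the caller counted as 1 unit is not stated. It was at least 10 times the lowest in both lists for 34 regions, 22 of them on chromosome 9. Their background medians were 682 fragments in FM and 2627 in KO. With no control library among the samples, how far the peaks of these regions raised their own background was not tested. None of the 34 lay at an annotated start, 1 lay inside a gene, and the nearest gene was a median of 312 kb away. No filter for repeated sequence was applied to any region here. Whether these 34 regions, or the high-fold regions, were open chromatin was not tested.

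**Figure D4:**
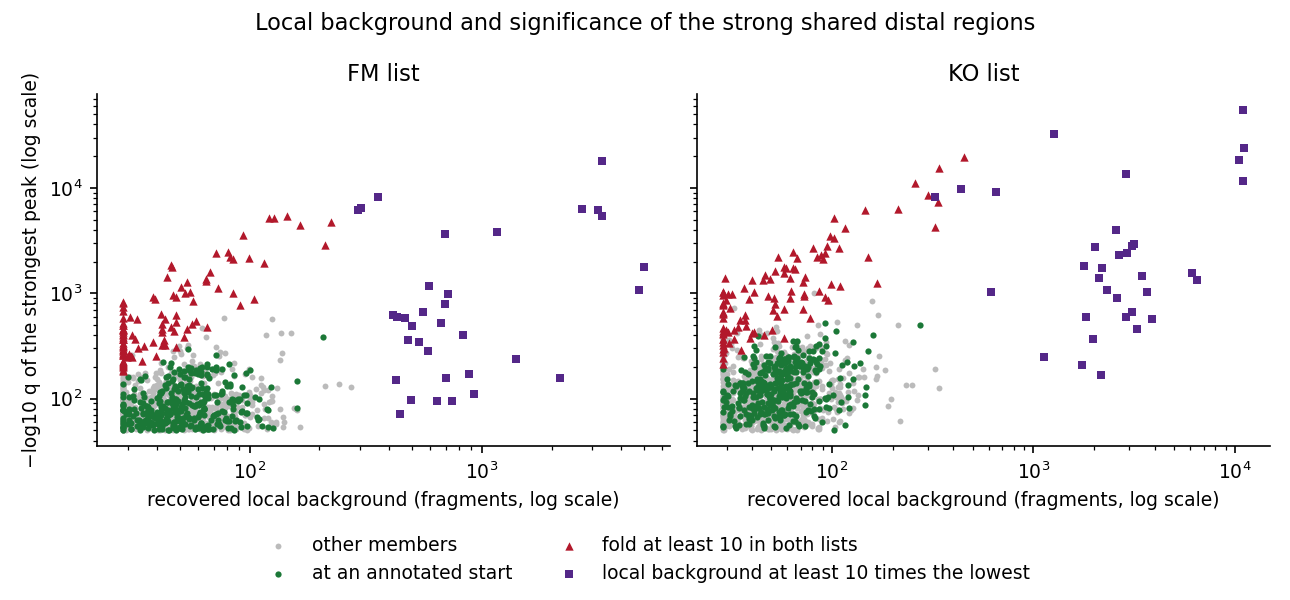
Local background recovered at the strongest summit (fragments, log axis) against its −log10 q (log axis) in FM (left) and KO (right), 1 point per region. The 34 squares, at 292 fragments or more in FM and 323 or more in KO, stand to the right of nearly all other regions, and regions at annotated starts stay at or below 206 and 275 fragments.

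Ordered by the smaller −log10 q of the lists, which was the FM value in each of the first 12, the 12 most significant regions came from these classes, and none lay at an annotated start. Of the 12, 8 had a fold of at least 10 in both lists and 7 a high background. The first, chr2:98666191-98667480, had −log10 q of 17912 in FM and 55389 in KO, with folds of 9.33 and 8.91 over a background of 3300 and 11020 fragments. It and 2 further regions of the first 12 lay within chr2:98662135-98667480, over 1 Mb from Lrrc4c, a gene of a synaptic adhesion protein. The region ranked 4, chr14:19415625-19419743, was 4119 bp wide with 11 summits in each list, 115 kb from Gm2244. The regions ranked 2 and 3, chr9:35305116-35305691 and chr11:109011546-109012222, were narrow single-summit regions inside the lncRNA genes Gm33838 and Gm36876, with folds of 23.8 and 22.7 in FM and 25.7 and 23.3 in KO. Both also belonged to the high-background class. The region on chromosome 11 ranked 3 by p in FM and 10 in KO.

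The other 6 of the 12 were narrow and of high fold. A region in Chl1, a neural adhesion gene, chr6:103648948-103649392, had folds of 37.1 in FM and 39.0 in KO. One at chr12:3109772-3110221, 137 kb from Rab10, had 35.7 and 37.7, and one shared by Cmss1 and Filip1l, chr16:57391147-57391776, had 33.6 and 37.3. A region inside Cdk8, the kinase of the Mediator complex, had 22.4 and 23.0. The regions near Rpp21 and Pex2 had 22.6 and 26.6 in FM and 25.7 and 27.8 in KO. That near Rpp21 also belonged to the high-background class, with 292 fragments in FM and 323 in KO. All 6 were 445 to 681 bp wide with 1 summit in each list. Their pileups, recovered with the backgrounds, ran from 4393 to 6624 in FM and from 7701 to 17009 in KO. Over all strong shared distal regions the median pileups were 259 and 319. Among the first 100 regions of that order 73 had a high fold, 23 a high background and 2 a start; among the first 200 the numbers were 105, 25 and 28.

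The widest regions were of different kinds. The widest, chr17:39843005-39847225 at 4221 bp, overlapped the 18S ribosomal pseudogene Rn18s-rs5 and had folds of 2.54 in FM and 2.12 in KO over a background of 4985 and 6517 fragments. After chr14:19415625-19419743 came a 3095 bp region inside Nr3c1, the glucocorticoid receptor gene, with folds of 4.38 and 3.95. A 2922 bp region in Cpeb2, a translation regulator, lay at the start of the lncRNA Gm7854 with folds of 4.61 and 5.50, and a 2775 bp region in Schip1 had 8 summits in FM and 6 in KO. The sixth, chr1:24612147-24614897, lay by the pseudogene Gm10222, with folds of 6.97 in FM and 17.2 in KO over a background of 1162 and 648 fragments. The narrowest, 214 and 220 bp, lay at chr9:3023442-3023655 and chr9:3015245-3015464 with folds near 2 in both lists, whereas the next, 221 bp at chr15:41276872-41277092, had folds of 6.97 in FM and 10.8 in KO.

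Most regions stood alone. Joined at gaps of up to 10 kb, they formed 1155 loci, of which 1115 held 1 region and 10 held 3 or more, 53 regions together. The largest held 21 regions in chr9:2999910-3036439, next to the unsequenced centromeric end of the chromosome. Its backgrounds ran from 415 to 929 fragments in FM and from 1787 to 3866 in KO. A locus of 6 regions lay inside Tmem267 (chr13:119596022-119603473), and 2 loci of 5 and 3 regions lay near Gm15319 on chromosome 8.

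By nearest gene, the regions belonged to 995 of 20665 autosomal protein-coding genes within 100 kb (4.81%), 900 of them with 1 region and 77 with 2. Gm15319 had 13 regions over 171 kb, with folds of 3.28 to 11.8 in FM and 2.99 to 16.1 in KO. Sfi1, a centrosome gene, and Tmem267 had 6 each, and together with Gm15319 they had none at an annotated start. The local background of the Sfi1 regions ran from 64.8 to 432 fragments in FM and from 57.5 to 619 in KO. That of the Tmem267 regions ran from 99.6 to 164 and from 144 to 233. The medians over all strong shared distal regions were 48.5 and 53.2. For Gm15319 it ran from 28.6 to 82.5 in FM and from 28.8 to 111 in KO. There were 3 genes with 4 regions each. Sertad2, named above, had 2 inside the gene and 1 at a start, with folds of 5.12 to 6.25 in FM and 5.26 to 7.73 in KO. Pim1, a serine/threonine kinase gene, had all 4 outside the gene and 2 at starts of lncRNA genes, with folds of 3.45 to 4.22 in FM and 3.65 to 4.85 in KO. Atg7, an enzyme of autophagy, had all 4 outside the gene with folds of 4.95 to 11.1 and 4.62 to 10.3. A further 12 genes had 3, among them Arid1b, a subunit of the BAF remodelling complex, Ccr1, a chemokine receptor gene, and Chd2, a chromatin remodeller. The strongest of the Chd2 regions, chr7:73557776-73559159, held the Chaserr start printed above, with folds of 8.46 in FM and 8.62 in KO and −log10 q of 217 and 270.

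Few genes of any lineage list were the nearest gene of such a region. Over 12 lists, 21 of 257 autosomal genes were nearest to a strong shared distal region (8.17%, exact 95% interval 5.13 to 12.2%), beside 4.81% of all autosomal protein-coding genes. In the primitive streak and mesendoderm list it was 1 of 26, none of 20 for definitive endoderm (exact upper limit 16.8%), 2 of 24 for mesoderm and heart, none of 21 for neurectoderm (16.1%) and none of 14 for genes of unrelated organs (23.2%). The pluripotency list had 3 of 33, Nodal, Activin and BMP signalling 3 of 28, Wnt and FGF signalling 2 of 28, extraembryonic genes 3 of 16, fibroblast genes 1 of 16, housekeeping genes 1 of 11 and chromatin regulators 5 of 22 (22.7%, 7.82 to 45.4%). Each list's interval but that of the chromatin regulators included 4.81%. The intervals were not corrected for the 12 lists, and the lists were chosen with earlier results of these data known. The 1 exception is therefore a description only. The part of gene length in these counts was not tested.

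**Figure D5:**
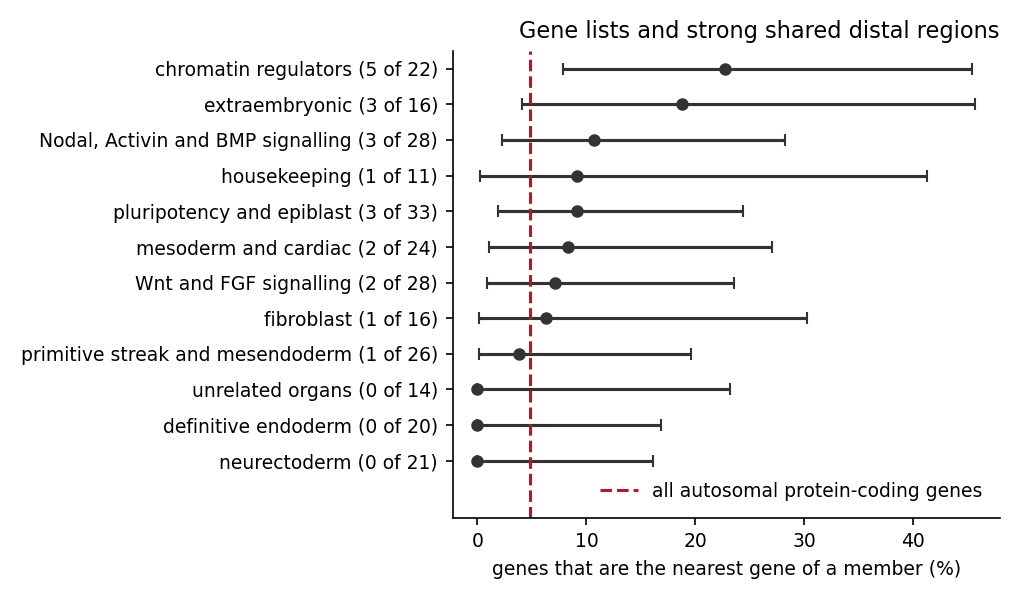
Share of each list's autosomal genes that were the nearest gene of a strong shared distal region (%, horizontal axis), with exact 95% intervals over genes and the count beside each name; the dashed line is the 4.81% of all autosomal protein-coding genes. Chromatin regulators stand highest at 22.7%, and 3 lists stand at 0.

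The 5 chromatin regulators divided by position. The Stag1 region, chr9:100642583-100644589, held the internal start printed above and had folds of 6.21 in FM and 6.81 in KO, at −log10 q of 192 and 284. The Dnmt3a region, chr12:3891308-3892919, held the internal start printed above with folds of 3.04 and 3.54. The region of Dnmt1, the maintenance methyltransferase gene, chr9:20952092-20953215, held internal starts of that gene with folds of 4.75 in FM and 8.52 in KO. The region of Tet1, which encodes an oxidase of methylated cytosine, chr10:62865169-62866771, lay inside the gene at no annotated start with folds of 5.28 and 6.02. That of Chd7, a chromatin remodeller, lay 43.2 kb outside the gene with folds of 4.001 and 3.91.

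In the pluripotency list, the regions of Klf4 and Esrrb, 2 factors of naive pluripotency, were near the threshold. The Klf4 region, chr4:55514379-55515393, lay 12.3 kb from the gene with −log10 q of 58.0 in FM and 63.7 in KO. The Esrrb region, chr12:86433135-86433853, lay inside the gene with 66.98 and 61.2. The region inside Jarid2, a cofactor of Polycomb repressive complex 2, chr13:44869472-44870140, was of the narrow kind, with folds of 20.3 in FM and 25.9 in KO and −log10 q of 1027 and 2414. The Axin2 region, the single one of the streak list, was narrow and of high fold too, but also belonged to the high-background class, with 303 fragments in FM and 438 in KO, and ranked 3 by p in FM and 10 in KO. It lay 61.1 kb from Axin2, a feedback inhibitor and known target of Wnt signalling, inside Gm36876, and its nearest gene was set by distance alone.

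Signalling genes had regions of moderate fold. Those of Smad3, an effector of Nodal and Activin, and of Smad7, an inhibitory Smad, lay 45.4 and 24.0 kb from the gene with folds of 4.17 and 3.75 in FM and 4.97 and 4.33 in KO. Ski, a co-repressor that binds Smads, had 2 regions inside the gene with folds of 4.23 and 3.66 in FM and 5.58 and 5.21 in KO. The region in Fgfr1, an FGF receptor gene, chr8:25542882-25544284, had folds of 6.10 in FM and 5.73 in KO, and that near Nkd1, a feedback inhibitor of Wnt signalling, had 3.98 and 4.96. None of these lay at an annotated start, with Smad7 left out because its chromosome is not in the start table.

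Among lineage genes, the Runx1 region, chr16:92697182-92699190, held the internal start printed above and was close to the threshold, with folds of 3.78 in FM and 4.13 in KO and −log10 q of 54.9 and 69.6. The region near Mef2c, a gene of muscle and heart development, lay 78.0 kb away with folds of 5.55 and 7.17. The extraembryonic list had Tfap2a and Gata3, with regions inside the genes, and Tead4, with one 26.5 kb away; all 3 encode transcription factors of the trophoblast. Their folds were 5.52, 3.65 and 6.73 in FM and 8.43, 4.03 and 8.09 in KO, in that order. Col1a1, the collagen gene of the fibroblast list, had a region 7.20 kb away with folds of 3.50 in FM and 4.66 in KO. The bodies were grown from cells kept on fibroblasts, and the part of such cells in this region was not tested. Ywhaz, the housekeeping gene, had 2 regions of 3.91 and 3.89 in FM and 4.13 in both cases in KO.

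The threshold fell within a continuous range of values. The regions just inside it lay in Msi1, Urgcp and Akap12, with a smaller −log10 q of 50.01, 50.05 and 50.09, and that of Urgcp lay at a start of the gene. Just outside it were regions in Mical3 and Dhx30 and one 267 kb from Gata6, at 49.99, 49.99 and 49.98 in FM, with folds of 3.61, 3.81 and 4.80 in FM and 4.67, 4.60 and 4.84 in KO. The regions farthest from any gene, chr1:102628061-102628440 and chr14:90911088-90911374, lay 2138 kb from Cntnap5b and 2102 kb from Pcdh9. Both were narrow with 1 summit in each list, and their folds were 14.04 and 6.16 in FM and 30.1 and 9.58 in KO.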

How the data were processed

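The authors deposited 1 narrowPeak list for each group of 3 libraries, on mm10, with no file header. The submitters' processing notes name bcl2fastq, SAMtools, Bowtie2 and the peak caller MACS2. Their versions, and any pooling of libraries, Tn5 shift, or duplicate and mitochondrial filter, are not stated in the sources used here. By the narrowPeak layout, the columns the authors deposited hold an integer score, the fold enrichment over local background, the −log10 p and −log10 q of each summit, and the summit offset. The lowest −log10 q was 1.30, as a q threshold of 0.05 gives. Read depth is not in the lists.

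Summit rows of a peak were collapsed, overlapping peaks of both lists were merged, and distances were taken to RefSeq GRCm38.p6 gene ends (20665 autosomal protein-coding genes). The strongest peak of a region is that of lowest p. Local background was recovered from fold and p by a Poisson model, and 99.3% of FM and 98.0% of KO pileups came out whole within 0.02. Start windows came from a promoter table without chromosome 18, whose 53 regions were not analysed here for starts. Intervals are exact (Clopper-Pearson). The named regions follow rules on rank, width, threshold, distance, noncoding genes, summits, genes with most regions and gene lists. Printed windows, microRNAs and tRNA genes were chosen after their values were seen. The planned results did not include the shares at annotated starts, the CpG and motif shares, or the high-fold and high-background classes. The regions and lists were chosen with earlier results of these data known. Merging and recovery were tested on simulated data, and each simulated answer was recovered. Python 3.11.15, pandas 2.3.3, numpy 2.4.6, scipy 1.17.1 and matplotlib 3.10.9 were used.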

Additional observations from a re-analysis of the deposited data

Results flagged for a closer look

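Sequences outside the autosomes, which no comparison above uses, also held regions that met the rest of the rule, and they are listed because the lists carry signal there. Chromosome X had 25 such regions among 107 shared regions that passed the threshold and 1296 merged regions. Chromosome Y had 9 of 12, among 71 merged regions. The unplaced scaffolds had 45 of 45, among 197 merged regions; distance to a gene end has little meaning on a short scaffold.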

How the results depend on the processing

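Of 91 values recomputed under another setting, 58 moved by less than their interval or by under 1.5 times for a count, and 33 moved more; none changed a direction, as none has one. A threshold of 30 gave 2582 regions, with 23.7% at starts, median ranks in the top 3.81% (FM) and 6.03% (KO) and 18.7% of list genes beside 9.32% of all autosomal protein-coding genes. A threshold of 100 gave 440 regions, with 26.1% at starts, 46.6% inside genes, a width of 1016.5 bp, ranks of 0.356% and 0.718%, 22.5% near noncoding genes and 2.33% of list genes beside 1.65% of all genes. The other shared distal regions stood at 2.45% and 3.14% at starts under these thresholds. A distance of 2 kb gave 56.9% inside genes, 1107.5 bp and 34.8% at starts, and 10 kb gave 49.5% inside genes and 26.9% at starts. Distance from the ends of every gene, noncoding ones included, gave 61.4% inside genes, 1025 bp and 27.0% at starts. Its share of list genes was 3.89% beside 3.33% of all genes. Its share near noncoding genes was 4.75%, lowered by the setting itself, which removes summits within 5 kb of noncoding gene ends. The 10000 best peaks of each list gave ranks of 2.21% and 3.56%. Without the regions of fold 10 or more, a setting chosen after seeing the data, width was 1115 bp and ranks 2.16% and 3.65%. Width of the strongest peak alone was 990 bp in FM and 999.5 bp in KO, rank by fold was 1.77% in FM, lncRNA genes alone gave 20.4%, and a summit inside the start window 22.2%. No paired analysis was possible because each group has 1 list, and for the same reason no replicate could be left out. The number of reads behind each list is unknown, which limits any reading of regions missing from a list.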
